A study of Mus musculus with 8 samples.

Results

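Control fibro-adipogenic progenitors (FAPs) were compared between 3 and 7 days post-injury (dpi), in the 4 of 8 RNA-seq libraries whose labels give the control genotype, 2 for each day. FAPs are the interstitial mesenchymal cells of skeletal muscle. After injury they multiply, signal to immune cells and muscle stem cells, and lay down a transient extracellular matrix, and they later return to rest or die. Osr1, a zinc finger transcription factor of embryonic limb mesenchyme, is switched on again in FAPs of injured muscle.

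Control mice (Ctrl) had the genotype Osr1 flox/+ CAGG Cre+, in which a ubiquitous, tamoxifen-inducible recombinase replaces the floxed Osr1 allele by a GFP reporter. The cells were therefore heterozygous for Osr1, and uninjured or wild type FAPs were not analysed here. Per the study's methods, the tibialis anterior of mice aged 4 to 6 months and of C57Bl6 background was injured by freeze-piercing, tamoxifen was given from the day of injury, and GFP+ cells negative for CD31, CD45 and TER-119 were sorted. A 3 dpi library came from 1 mouse and a 7 dpi library from 4 pooled mice, so that p-values below measure the spread between single mice on the early day and between pools on the late day. The 4 Osr1cKO libraries (Osr1 flox/flox CAGG Cre+), with the same injury, treatment, days and pool sizes, were used only to set a second day comparison beside that in Ctrl.

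Depth was close among the Ctrl libraries, at 39492008 to 48739771 fragments on genes, as recovered from the steps in the values. Across genes, log2(TPM + 1) correlated at r = 0.977 between the 3 dpi libraries, r = 0.992 between the 7 dpi libraries and r = 0.909 to 0.931 between days, where TPM is a transcript's length-corrected share of its library. Protein-coding genes held 93.6% and 94.2% of TPM at 3 dpi and 82.7% and 83.4% at 7 dpi. Short and ribosomal RNA-like entries held more at 7 dpi, and Gm23935, the largest of them, stood at 22369 and 20989 TPM at 3 dpi and 75174 and 66444 TPM at 7 dpi. The libraries were therefore scaled to each other by a trimmed mean of log ratios, with factors from 0.959 to 1.06. The labels do not give sex, and sex-linked transcripts moved with day. Ddx3y, on chromosome Y, was listed at 0 in both 3 dpi libraries and stood at 47.5 and 48.6 TPM at 7 dpi. Xist, the X inactivation RNA, was at 52.9 and 33.9 TPM at 3 dpi and 12.4 and 0.0252 TPM at 7 dpi. In Osr1cKO, Xist was at 46.3 and 40.9 TPM at 3 dpi and 109.9 and 103 TPM at 7 dpi and Ddx3y was listed at 0 at 3 dpi and stood at 10.5 and 2.22 TPM at 7 dpi. Sex and pool size cannot be told apart from day in Ctrl. The labels give every library the same sequencing instrument, while the study's methods name 2 without tying them to days, so that a difference in sequencing run between the days was not tested. Of 537 tested genes of chromosome X 101 were higher and 84 lower at 7 dpi, with a median of 0.06 on the log2 scale.

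Between 3 and 7 dpi, genes of mitosis, DNA replication, ribosome biogenesis with Myc targets, cholesterol synthesis and the interferon response fell in most of their listed members. So did nuclear genes of the respiratory chain and folding genes of the endoplasmic reticulum. Small leucine-rich proteoglycans, elastic fiber proteins, tendon-associated genes and genes of resting fibroblasts rose in 50% or more of their tested members. The same held for complement genes, collagens outside the fibrillar and basement membrane lists, mitochondrially encoded genes, and myofiber, pericyte and erythroid markers. Of 16525 genes tested with limma, 2912 were higher (17.6%) and 3328 lower (20.1%) at 7 dpi, 37.8% in all, taking a Benjamini-Hochberg adjusted p under 0.05 together with a change of more than 1.2-fold. These genes are referred to as called, and the counts of each list below are to be read beside these shares. The lists and promoter motifs were chosen with earlier results of these data known. Their counts and shares therefore describe the members and test nothing. In all, 25% of contractile, 29.6% of limb factor, 32.1% of basement membrane, 37.9% of collagen-modifying and 42.9% of TGF-beta and BMP genes were called. Those lists lay near or below the share of all tested genes, so their total counts mark nothing particular to them. The same held for fibrillar collagen (36.4%), cartilage and bone (40.9%), metal and oxidative stress (31.25%) and cytosolic ribosomal protein genes (22.4%). Among marker lists it held for macrophage (31.6%), Schwann cell (37.5%) and endothelial, neutrophil and lymphoid markers (33.3% each). In each of the 6240 both 7 dpi libraries lay on one side of both 3 dpi libraries. A call at this threshold nearly requires that, and its share over all tested genes is not given. The change was over 2-fold in 1433 of the higher and 1536 of the lower genes. Differences are given as 7 dpi minus 3 dpi in log2(TPM + 1) ± SE, a scale that understates changes of genes near 1 TPM, and the median over all tested genes was 0.01. The sign of every called gene held without any 1 Ctrl library, which nearly follows from the days not overlapping, but the number of calls did not hold. It was 717 higher and 792 lower without the first 7 dpi library and 345 and 365 without the second, in fits where the lone remaining library is assumed to vary like those of the other day. Each list below is followed by its number of calls in these fits, as left-out counts for the first and the second 7 dpi library, and each called gene given with its levels and difference by the libraries without which its call was lost.

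**Figure D1:**
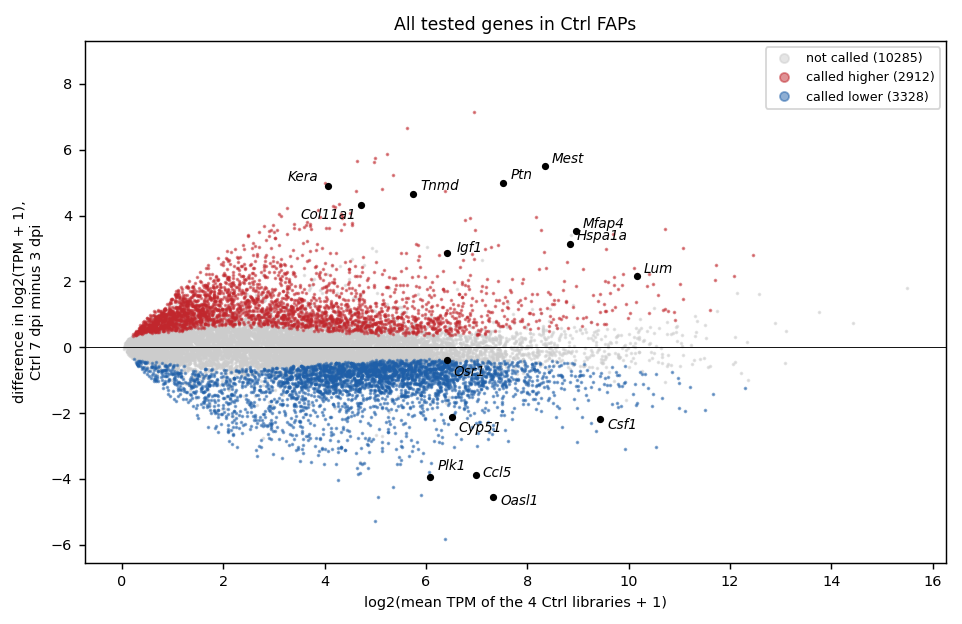
Each point is 1 of 16525 tested genes; the x axis is log2 of the mean TPM of the 4 Ctrl libraries plus 1 and the y axis the difference in log2(TPM + 1) between 7 and 3 dpi. The 2912 genes called higher (red) and 3328 called lower (blue) lie above and below the 10285 genes not called (grey), with Mest, Ptn and Kera near the upper edge and Oasl1, Plk1 and Ccl5 near the lower one.

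Osr1 itself (ENSMUSG00000048387.8, mm10 chromosome 12, 9570116 to 9581500, plus strand) was at 105 and 91.0 TPM at 3 dpi and 67.6 and 71.6 TPM at 7 dpi (-0.39 ± 0.11, adjusted p = 0.045, no call without either 7 dpi library). In Osr1cKO it was at 70.7 and 71.9 TPM at 3 dpi and 64.4 and 60.8 TPM at 7 dpi. The gene-level value also counts reads from outside the deleted part of the gene, and is no check of the deletion. Its paralog Osr2 went the other way, at 49.7 and 61.5 TPM at 3 dpi and 106 and 122 TPM at 7 dpi (1.12 ± 0.17, adjusted p = 0.0096, no call without either 7 dpi library). Emx2, a homeobox factor of the developing limb and urogenital tract, was at 17.1 and 18.6 TPM at 3 dpi and 39.2 and 34.0 TPM at 7 dpi (1.08 ± 0.15, no call without either 7 dpi library). Of 27 tested transcription factors of limb mesenchyme 6 were higher and 2 lower (left-out counts 0 and 0), the lower ones being Osr1 and Snai1, a repressor of epithelial genes, at 519.7 and 349 TPM at 3 dpi and 164 and 143 TPM at 7 dpi (-1.37 ± 0.21, no call without either 7 dpi library). Factors that place the limb, such as Tbx4, Tbx5 and Pitx1, were not called (-0.43, 0.48 and -0.28).

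Markers of the labelled cell type were high on both days. Pdgfra, the receptor by which FAPs are usually recognised, stood at 365 and 340.5 TPM at 3 dpi and 197 and 220.2 TPM at 7 dpi (-0.66 ± 0.12, adjusted p = 0.015, no call without either 7 dpi library). Ly6a, which encodes the stem cell antigen Sca1, was at 5407 and 4232 TPM at 3 dpi and 1544 and 1788 TPM at 7 dpi (-1.43 ± 0.26, adjusted p = 0.015, no call without either 7 dpi library). Both were lower at 7 dpi, as were Eng, a TGF-beta co-receptor, and Hic1, a repressor linked to quiescence of mesenchymal progenitors, which fell by 1.32 and 1.18. Of 19 tested FAP identity genes 5 were higher and 7 lower (left-out counts 6 and 1), with a median of -0.29 that was -0.01 without the second 3 dpi library. Fap, a serine protease of activated fibroblasts, was at 24.8 and 30.5 TPM at 3 dpi and 127 and 139 TPM at 7 dpi (2.32 ± 0.16). Gli1, a target of hedgehog signaling, was at 2.60 and 3.02 TPM at 3 dpi and 10.7 and 16.8 TPM at 7 dpi (2.0 ± 0.26, no call without the second 7 dpi library). Twist1, Ddr2 and Thy1 were not called (-0.02, 0.05 and -0.09), so the identity genes moved in both directions around a group that did not pass the test.

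Genes of mitosis were lower at 7 dpi in all 25 cases tested, where 20.1% of all genes were lower. Their median was -2.77 and they ranged from -3.94 to -1.0 (left-out counts 24 and 21). Plk1, a kinase that drives entry into and passage through mitosis, was at 113 and 139.7 TPM at 3 dpi and 7.64 and 6.06 TPM at 7 dpi (-3.94 ± 0.19, adjusted p = 0.0033). Aurkb, the kinase of the chromosomal passenger complex, was at 41.9 and 50.9 TPM at 3 dpi and 2.20 and 2.06 TPM at 7 dpi (-3.84 ± 0.19). Aurka, which acts at the spindle poles, was at 41.3 and 53.6 TPM at 3 dpi and 3.04 and 1.58 TPM at 7 dpi (-3.82 ± 0.30). For these kinases the lowest 3 dpi library was over 10-fold above the highest 7 dpi library. The proliferation antigen Mki67 and the mitotic cyclin Ccnb1 moved by -2.29 and -3.11, and Ccne1, a cyclin of the G1 to S transition, moved least (-1.0).

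DNA replication genes were lower in 24 of 25, with a median of -2.31 (left-out counts 22 and 16). Mcm5, a subunit of the replicative helicase, was at 103 and 144 TPM at 3 dpi and 9.50 and 5.72 TPM at 7 dpi (-3.78 ± 0.30, adjusted p = 0.0038). Its partner Mcm3 was at 94.0 and 127 TPM at 3 dpi and 11.3 and 9.10 TPM at 7 dpi (-3.22 ± 0.22). Uhrf1, which carries DNA methylation through replication, moved by -2.99, and Pcna, the sliding clamp of the polymerase, by -0.93. Fen1, a flap nuclease, was the 1 member not called (-1.13), and its difference was -0.02 without the first and -2.28 without the second 3 dpi library. In Osr1cKO all 25 genes of each of these lists were lower, with medians of -2.46 for mitosis and -2.10 for replication. Replication-dependent histone genes, whose transcripts normally lack a poly(A) tail and are poorly sampled by this kind of library, were lower in 4 of 11 and higher in 1, with a median of -1.03 that was -0.58 without the second 7 dpi library (left-out counts 5 and 2).

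Promoters are shown for 4 lists whose members moved together. RefSeq windows of GRCm38.p6, from 250 bases before to 50 after a start site, were searched on both strands for TTTGAA (the cell cycle gene homology region, CHR), CCAAT, TTTNNCGC (E2F), TCACNCCAC (a sterol response element, SRE) and GAAANNGAAA (an interferon-stimulated response element, ISRE), and 1 window for each of 20502 genes was used. For each list, the called gene of largest change whose window holds the motif assigned to the list is printed, 5′ to 3′ on the strand of the gene, with every match to any of the 5 motifs in capitals. Plk1, at chr7:122159185-122159484 on the plus strand, was taken for the CHR of mitosis genes. Mcm5, at chr8:75109259-75109558 on the plus strand, was taken for the E2F motif of replication genes. Oas3, at chr5:120777610-120777909 on the minus strand, was taken for the ISRE of interferon-stimulated genes, and Cyp51, at chr5:4104648-4104947 on the minus strand, for the CCAAT motif of cholesterol genes.
Plk1: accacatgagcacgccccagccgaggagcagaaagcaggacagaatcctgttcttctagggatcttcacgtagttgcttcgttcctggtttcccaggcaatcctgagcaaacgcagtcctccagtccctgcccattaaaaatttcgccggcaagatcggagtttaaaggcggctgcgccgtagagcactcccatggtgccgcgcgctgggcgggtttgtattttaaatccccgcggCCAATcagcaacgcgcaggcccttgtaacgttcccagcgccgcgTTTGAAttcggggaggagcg
Mcm5: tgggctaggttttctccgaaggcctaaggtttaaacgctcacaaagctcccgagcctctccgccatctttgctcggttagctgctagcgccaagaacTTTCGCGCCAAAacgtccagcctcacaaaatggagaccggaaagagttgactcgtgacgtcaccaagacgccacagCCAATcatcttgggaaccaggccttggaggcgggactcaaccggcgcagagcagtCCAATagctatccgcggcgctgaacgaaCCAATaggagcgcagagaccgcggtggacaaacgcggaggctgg
Oas3: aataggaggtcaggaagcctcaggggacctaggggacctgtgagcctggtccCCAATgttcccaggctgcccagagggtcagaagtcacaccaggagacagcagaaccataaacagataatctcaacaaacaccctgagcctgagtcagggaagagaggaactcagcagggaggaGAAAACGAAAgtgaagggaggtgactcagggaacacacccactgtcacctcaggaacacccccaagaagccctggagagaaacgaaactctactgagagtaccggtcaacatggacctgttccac
Cyp51: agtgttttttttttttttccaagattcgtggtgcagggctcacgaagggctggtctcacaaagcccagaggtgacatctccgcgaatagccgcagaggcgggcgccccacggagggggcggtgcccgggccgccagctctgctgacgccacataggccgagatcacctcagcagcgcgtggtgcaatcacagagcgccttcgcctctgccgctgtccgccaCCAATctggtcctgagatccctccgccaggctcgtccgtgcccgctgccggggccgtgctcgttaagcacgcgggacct
The CHR letters were in 13 of 19 windows of the mitosis list (68.4%) and in 16.9% of all windows. CCAAT was in 16 of these 19 (84.2%) and in 38.2% of all. In Plk1 the CCAAT match began 14 bases before the start site and the CHR match at base 31 of the transcript. The E2F letters were in 10 of 21 windows of replication genes (47.6%), in 1 of 19 of the mitosis list (5.26%) and in 5.92% of all, and in Mcm5 the matches on both strands overlap each other. A match describes letters in a window, and no test tied it to the change in level.

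The list of ribosome biogenesis genes and Myc targets was lower in 21 of 25 and higher in 1, with a median of -1.17 (left-out counts 10 and 3). Mybbp1a, a nucleolar protein of ribosomal RNA transcription and processing, was at 209.6 and 231 TPM at 3 dpi and 55.1 and 52.7 TPM at 7 dpi (-1.92 ± 0.13, adjusted p = 0.0038). Rrp12, which takes part in the export of pre-ribosomal subunits, was at 48.2 and 49.8 TPM at 3 dpi and 13.1 and 12.2 TPM at 7 dpi (-1.79 ± 0.13). The libraries of a day lay close together for both genes, and the days far apart. Ncl and Npm1, which encode the abundant nucleolar proteins nucleolin and nucleophosmin, moved by -1.41 and -1.17. Nop58, a core protein of small nucleolar ribonucleoproteins whose introns hold small RNA genes, was the higher member, at 51.8 and 55.1 TPM at 3 dpi and 76.9 and 80.8 TPM at 7 dpi (0.64 ± 0.11, no call without either 7 dpi library). The list also holds genes that do not act in ribosome assembly, Odc1 and Srm of polyamine synthesis, which were lower (-0.45 and -1.57), and the transcription factor Myc itself, which was not called (0.51). The cytosolic ribosomal proteins were lower in 11 of 49, close to the 20.1% of all genes, and higher in none, with a median of -0.26 (left-out counts 0 and 0).

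Nuclear genes of energy metabolism were mostly lower. Of 36 tested subunits of the respiratory chain 26 were lower and none higher, with a median of -0.78 (left-out counts 4 and 0). Uqcrc1, a core subunit of complex III, was at 129 and 134 TPM at 3 dpi and 50.9 and 47.6 TPM at 7 dpi (-1.31 ± 0.12, no call without the second 7 dpi library). Of 29 genes of glycolysis and the hypoxia response 13 were lower and 5 higher, with a median of -0.53 (left-out counts 7 and 1). Pkm, a pyruvate kinase, was at 1269.5 and 1253 TPM at 3 dpi and 407 and 312 TPM at 7 dpi (-1.73 ± 0.19, no call without the second 7 dpi library), and Ldha, lactate dehydrogenase, moved by -1.37. The lower members included most enzymes of the glycolytic chain itself. Among the higher ones, Pfkfb3, which makes the activator of phosphofructokinase, was at 10.8 and 12.9 TPM at 3 dpi and 40.1 and 29.0 TPM at 7 dpi (1.55 ± 0.22, no call without the first 7 dpi library), and the enolase Eno2 was at 12.6 and 5.43 TPM at 3 dpi and 28.4 and 30.9 TPM at 7 dpi (1.80 ± 0.35, no call without either 7 dpi library).

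Transcripts of the mitochondrial genome went up while the nuclear subunits went down, with 9 of 11 tested higher and a median of 2.41 (left-out counts 5 and 4). mt-Nd1, of complex I, was at 1267 and 636 TPM at 3 dpi and 3323 and 3036 TPM at 7 dpi (1.91 ± 0.35, no call without either 7 dpi library). mt-Cytb, of complex III, was at 1364 and 842 TPM at 3 dpi and 6024 and 5344 TPM at 7 dpi (2.50 ± 0.31, no call without either 7 dpi library). The 13 mitochondrial genes of the list held 0.917% and 0.462% of TPM at 3 dpi and 2.40% and 2.15% at 7 dpi. The largest differences belonged to mt-Co2, mt-Co3, mt-Atp6 and mt-Nd4l, which have near-identical nuclear copies and low levels, mt-Co2 at 1.41 and 0.46 TPM at 3 dpi and 29.8 and 42.5 TPM at 7 dpi (4.36 ± 0.31), so their values are uncertain. These uncertain genes enter the count and the median above, and the left-out counts rest mainly on them.

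Folding and stress genes of the endoplasmic reticulum were lower in 16 of 24 and higher in 2, with a median of -0.96 (left-out counts 2 and 2). Asns, asparagine synthetase and a target of the amino acid response, was at 131 and 138 TPM at 3 dpi and 20.8 and 21.4 TPM at 7 dpi (-2.53 ± 0.11, adjusted p = 0.0033). Trib3, a pseudokinase induced by the same response, was at 13.7 and 17.2 TPM at 3 dpi and 2.05 and 2.09 TPM at 7 dpi (-2.34 ± 0.21). Both pairs of libraries were tight. Hyou1 and Pdia4, chaperones of secreted proteins, moved by -1.37 and -1.17. The higher members were Dnajb9, a co-chaperone, at 95.2 and 115 TPM at 3 dpi and 210.4 and 205 TPM at 7 dpi (1.08 ± 0.15, no call without either 7 dpi library), and Ddit3, which encodes CHOP, at 54.2 and 50.02 TPM at 3 dpi and 71.1 and 73.8 TPM at 7 dpi (0.56 ± 0.10, no call without either 7 dpi library). Of 16 genes of metal and oxidative stress 5 were lower and none higher, with a median of -0.28 that was -0.65 without the second 3 dpi library and -0.15 without the first (left-out counts 1 and 1). G6pdx, which supplies NADPH, was at 159.9 and 111 TPM at 3 dpi and 36.9 and 38.2 TPM at 7 dpi (-1.71 ± 0.17).

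Cholesterol genes were lower in 23 of 24 cases and higher in none, with a median of -1.34 (left-out counts 14 and 8). Fdps, farnesyl diphosphate synthase, was at 12.2 and 11.5 TPM at 3 dpi and 1.30 and 1.49 TPM at 7 dpi (-2.36 ± 0.18). Cyp51, the lanosterol demethylase, whose promoter is printed above, was at 160.4 and 137 TPM at 3 dpi and 34.1 and 28.3 TPM at 7 dpi (-2.13 ± 0.14, adjusted p = 0.0038). The libraries of a day lay close together for both enzymes. Tm7sf2, a sterol reductase, was not called (-0.01). In Osr1cKO 18 of the 24 were lower, with a median of -0.73, and Cyp51 was at 143 and 139.8 TPM at 3 dpi and 82.1 and 72.7 TPM at 7 dpi. The 3 dpi levels of Cyp51 overlap between the genotypes and its 7 dpi levels do not. CCAAT was in 15 of 16 promoter windows of the list (93.8%), and the SRE letters in 1 of 16 (6.25%) and in 1.23% of all windows.

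Interferon-stimulated genes were lower at 7 dpi in 37 of 41 cases and higher in none, with a median of -2.02 (left-out counts 30 and 26). They are transcribed when interferons bind their receptors, and encode sensors and effectors against viruses. Oasl1, which restrains Irf7 translation, was at 390.0 and 223 TPM at 3 dpi and 11.3 and 10.2 TPM at 7 dpi (-4.56 ± 0.26, adjusted p = 0.0035). Oas3, which makes the activator of RNase L and whose promoter is printed above, was at 77.6 and 48.1 TPM at 3 dpi and 1.34 and 1.73 TPM at 7 dpi (-4.55 ± 0.25). Isg15, a ubiquitin-like modifier, was at 1858 and 1674 TPM at 3 dpi and 193 and 191 TPM at 7 dpi (-3.10 ± 0.14). For each of these genes the lowest 3 dpi library was over 8-fold above the highest 7 dpi library. Irf7, a transcription factor of the response, was at 872 and 528 TPM at 3 dpi and 114 and 124 TPM at 7 dpi (-2.41 ± 0.24). The first 3 dpi library was the higher of its pair for 40 of the 41 genes. Stat2, Mx2, Iigp1 and Irf9 were not called (-0.77, -0.50, -0.45 and -0.25). The ISRE letters were in 17 of 30 windows of the list (56.7%) and in 3.38% of all.

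In Osr1cKO 7 of the 41 interferon-stimulated genes were called lower, with a median of -0.78. The 3 dpi Osr1cKO libraries differed from each other, with Oasl1 at 119.6 and 32.5 TPM and Isg15 at 1196 and 315 TPM. At 7 dpi Oasl1 was at 11.7 and 11.9 TPM and Isg15 at 157 and 195 TPM, near the Ctrl levels. PYHIN genes, a cluster of interferon-induced DNA sensors on chromosome 1, moved in both directions in Ctrl. Ifi209 was at 96.6 and 26.4 TPM at 3 dpi and 0.418 and 0.153 TPM at 7 dpi (-5.28 ± 0.59). Ifi206 was at 174 and 55.9 TPM at 3 dpi and 2.46 and 4.18 TPM at 7 dpi (-4.48 ± 0.54). Ifi202b was at 0.52 and 0.0926 TPM at 3 dpi and 51.6 and 69.6 TPM at 7 dpi (5.62 ± 0.25), and in Osr1cKO at 0.0931 and 188 TPM at 3 dpi and 46.8 and 31.0 TPM at 7 dpi. The 3 dpi Osr1cKO libraries thus differed in Ifi202b by more than the Ctrl days did. These genes are close paralogs, and the assignment of reads among them is uncertain.

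Chemokines were lower in 10 of 23 and higher in 2, with a median of -0.84 that was -0.51 without the first 3 dpi library (left-out counts 6 and 2). Ccl5, which attracts T cells and monocytes, was at 318 and 156 TPM at 3 dpi and 15.8 and 11.2 TPM at 7 dpi (-3.87 ± 0.35, adjusted p = 0.0042). Ccl2, which recruits monocytes through Ccr2, was at 3608 and 3556 TPM at 3 dpi and 811 and 929 TPM at 7 dpi (-1.95 ± 0.21, no call without either 7 dpi library). Ccl2 remained among the more abundant transcripts at 7 dpi. The interferon-induced Cxcr3 ligands Cxcl9, Cxcl10 and Cxcl11 moved by -1.87, -1.69 and -0.88. The higher members were Cxcl2, which attracts neutrophils, at 186 and 250.3 TPM at 3 dpi and 325 and 383 TPM at 7 dpi (0.80 ± 0.21, no call without either 7 dpi library), and the membrane-bound Cxcl16, at 25.9 and 30.5 TPM at 3 dpi and 42.3 and 40.2 TPM at 7 dpi (0.63 ± 0.15, no call without either 7 dpi library). Cxcl12 and Ccl11, chemokines of resting stroma, were not called (0.10 and -0.30).

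Cytokines and growth factors divided into 8 higher and 10 lower of 31, with a median of -0.13 that was -0.30 without the first 7 dpi library (left-out counts 8 and 4). Csf1, the macrophage growth factor, was at 1347 and 959.7 TPM at 3 dpi and 230.2 and 244 TPM at 7 dpi (-2.16 ± 0.19, adjusted p = 0.0039). Il11, a cytokine of the gp130 family, was at 149.8 and 101 TPM at 3 dpi and 13.8 and 16.9 TPM at 7 dpi (-2.84 ± 0.20). Lif, of the same family, and Il15 moved down with them (-1.67 and -1.23). On the other side Igf1, which promotes myofiber growth, was at 15.8 and 27.7 TPM at 3 dpi and 148 and 148 TPM at 7 dpi (2.85 ± 0.29, adjusted p = 0.0048), with nearly equal 7 dpi libraries. Fgf10, Il6 and Hgf, the ligand of Met on muscle stem cells, moved by 1.53, 1.44 and 1.01. Tnfsf11, which encodes RANKL, was at 6.18 and 4.39 TPM at 3 dpi and 19.4 and 15.7 TPM at 7 dpi (1.65 ± 0.21, no call without either 7 dpi library). Ptn, a heparin-binding growth factor of developing mesenchyme that is not on the list, had one of the 10 largest increases of all genes, at 5.92 and 18.8 TPM at 3 dpi and 369.7 and 336 TPM at 7 dpi (5.0 ± 0.51).

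Genes of NF-kB feedback and acute inflammation split as well, into 9 higher and 6 lower of 27 (left-out counts 4 and 2). Their median of 0.25 was 0.12 without the first and 0.40 without the second 3 dpi library. Lcn2, an iron-withholding acute phase protein, was at 63.7 and 33.0 TPM at 3 dpi and 4.53 and 6.63 TPM at 7 dpi (-2.77 ± 0.33). Saa3, a serum amyloid A, was at 128 and 174 TPM at 3 dpi and 37.0 and 30.7 TPM at 7 dpi (-2.02 ± 0.21). Both of these secreted proteins were lower, whereas the feedback inhibitor Tnfaip3, which encodes A20, was higher at 54.5 and 69.7 TPM at 3 dpi and 148 and 149.7 TPM at 7 dpi (1.35 ± 0.17, no call without the second 7 dpi library). Birc3, an inhibitor of cell death, was at 39.3 and 40.7 TPM at 3 dpi and 78.6 and 93.5 TPM at 7 dpi (1.17 ± 0.13, no call without the second 7 dpi library). Immediate early and heat shock genes, which respond within minutes to growth factors and stress, were higher in 13 of 27 and lower in none, with a median of 0.80 (left-out counts 7 and 4). Hspa1a, which encodes the inducible chaperone Hsp70, was at 110.2 and 84.2 TPM at 3 dpi and 947 and 680.3 TPM at 7 dpi (3.14 ± 0.22). Its neighbor Hspa1b was at 196 and 155 TPM at 3 dpi and 1527 and 1131 TPM at 7 dpi (3.0 ± 0.21), and reads of these near-identical genes cannot be kept fully apart. Atf3, a stress-induced factor, moved by 1.88, while Fos and Egr1 were not called (0.80 and 0.63).

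Complement genes were higher in 11 of 21 and lower in 1, with a median of 0.95 (left-out counts 5 and 1). C1s1, a protease of the classical pathway, was at 406 and 256 TPM at 3 dpi and 1085 and 1334 TPM at 7 dpi (1.99 ± 0.25, adjusted p = 0.0065, no call without the second 7 dpi library). C7, of the membrane attack complex, was at 26.2 and 3.99 TPM at 3 dpi and 64.0 and 95.5 TPM at 7 dpi (2.85 ± 0.78, no call without either 7 dpi library). The difference for C7 was 1.66 without the second 3 dpi library, which held the lowest value. Cd55, which protects host cells from complement, moved by 1.89. The lower member was Cfb, factor B of the alternative pathway, at 109.6 and 86.9 TPM at 3 dpi and 34.3 and 31.9 TPM at 7 dpi (-1.44 ± 0.14, no call without the second 7 dpi library). C1qa, C1qb and C1qc, which are also macrophage markers, are among the 11, and the part of macrophage RNA in them was not tested.

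**Figure D2:**
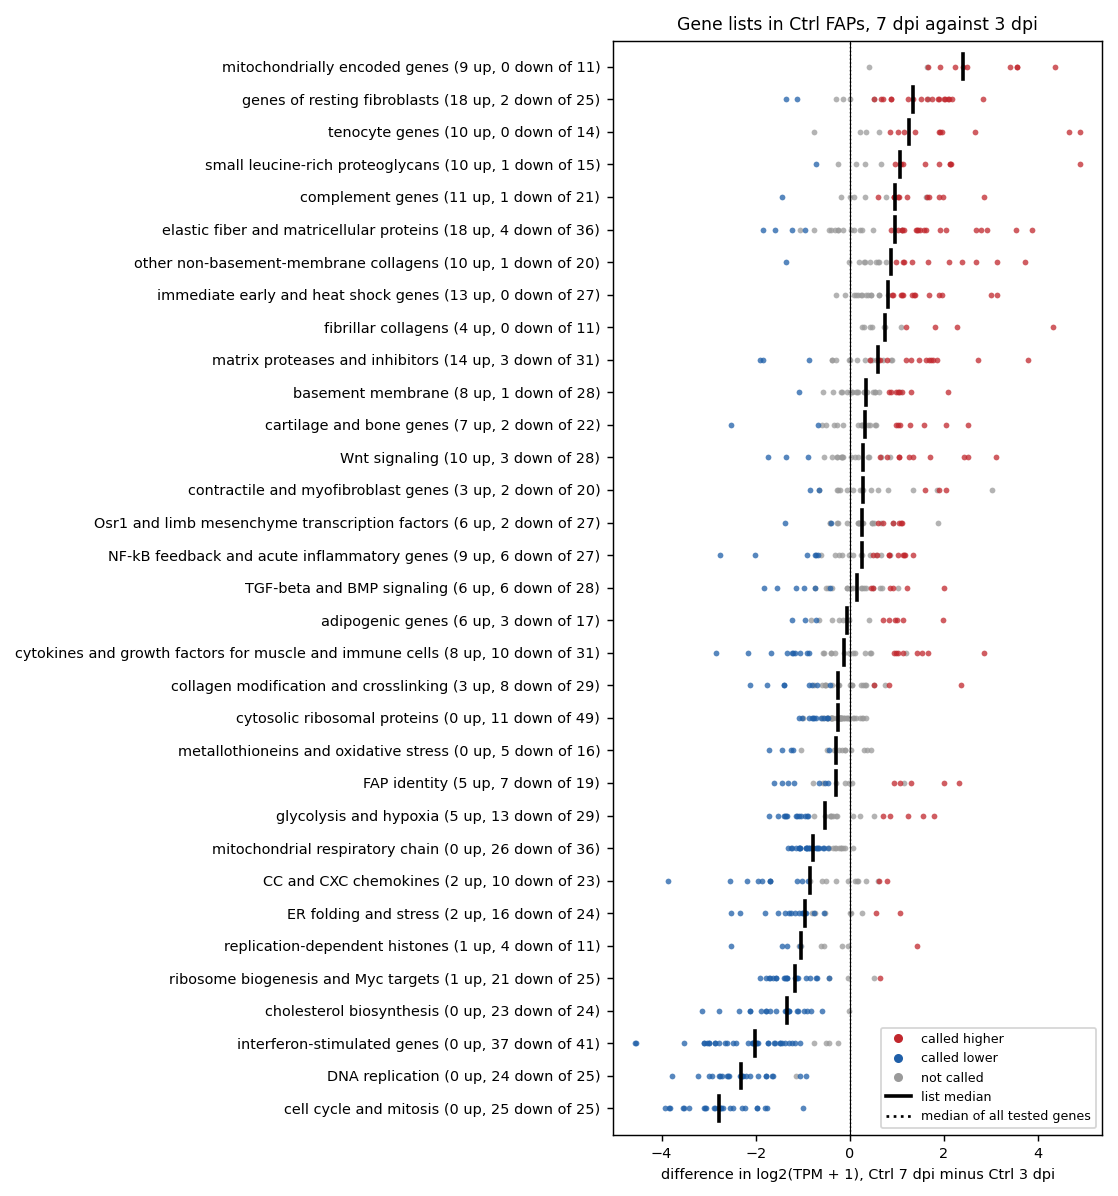
Each row is 1 of 33 gene lists, ordered by its median; points are members, at their difference in log2(TPM + 1) between Ctrl 7 and 3 dpi, red where called higher, blue where called lower and grey where not called. The row labels give these counts; the lists run from mitosis at a median of -2.77 to mitochondrially encoded genes at 2.41, and the dotted line is the median of all tested genes at 0.01.

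The main fibrillar collagens did not pass the test, while several minor collagens did. Col1a1, the main chain of type I collagen, was at 12404 and 22891 TPM at 3 dpi and 24977 and 27784 TPM at 7 dpi (0.74 ± 0.74, adjusted p = 0.47). Its 3 dpi libraries differed from each other by more than the means of the days did. Col1a2 and Col3a1 were likewise not called (0.73 and 1.09). Of 11 fibrillar collagen genes 4 were higher and none lower, with a median of 0.74 that was 0.39 without the first 3 dpi library (left-out counts 1 and 1). Col11a1, a chain that nucleates thin fibrils in cartilage and tendon, was at 1.51 and 1.77 TPM at 3 dpi and 48.7 and 49.8 TPM at 7 dpi (4.33 ± 0.16, adjusted p = 0.0033). The minor fibrillar chain Col24a1 was at 1.31 and 4.69 TPM at 3 dpi and 18.2 and 13.5 TPM at 7 dpi (2.27 ± 0.48, no call without either 7 dpi library). Another, Col27a1, was at 10.7 and 23.2 TPM at 3 dpi and 54.4 and 55.2 TPM at 7 dpi (1.82 ± 0.37, no call without either 7 dpi library).

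Other collagens were higher in 10 of 20 and lower in 1, where 17.6% and 20.1% of all genes were, with a median of 0.87 (left-out counts 7 and 6). Col6a6, a chain of the microfibrillar type VI collagen, was at 2.04 and 2.84 TPM at 3 dpi and 34.3 and 50.5 TPM at 7 dpi (3.72 ± 0.25, adjusted p = 0.0038). Its abundant partners Col6a1 and Col6a2 moved by 1.13 and 1.15, and Col14a1, which coats type I fibrils, by 2.38. Col8a2, a network-forming chain, was at 6.55 and 17.5 TPM at 3 dpi and 98.7 and 95.3 TPM at 7 dpi (3.14 ± 0.45, no call without the second 7 dpi library). The lower member was Col28a1, at 11.8 and 7.97 TPM at 3 dpi and 3.18 and 2.75 TPM at 7 dpi (-1.36 ± 0.23, no call without either 7 dpi library), and Col12a1 was not called (0.56).

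Basement membrane genes were higher in 8 of 28 and lower in 1, with a median of 0.33 that was 0.20 without the first 3 dpi library (left-out counts 1 and 0). Col15a1, which links the basement membrane to fibrils, was at 52.0 and 165 TPM at 3 dpi and 376 and 368 TPM at 7 dpi (2.08 ± 0.56, no call without either 7 dpi library). Its difference was 1.21 without the first 3 dpi library. Lama2, the main laminin chain of muscle, and the linker Nid1 moved by 1.03 and 1.05. Col4a1 and Col4a2, the chains of most basement membranes, were not called (0.04 and 0.04). The lower member was Lama3, of epithelial laminins, at 2.02 and 1.78 TPM at 3 dpi and 0.345 and 0.329 TPM at 7 dpi (-1.07 ± 0.14, no call without either 7 dpi library).

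Small leucine-rich proteoglycans, which bind collagen fibrils and set their diameter and spacing, were higher in 10 of 15 and lower in 1, with a median of 1.08 (left-out counts 7 and 4). Lum, lumican, was at 371 and 521 TPM at 3 dpi and 1805 and 1867 TPM at 7 dpi (2.15 ± 0.24, adjusted p = 0.0054, no call without the second 7 dpi library). Kera, keratocan, was at 0.106 and 0.103 TPM at 3 dpi and 26.0 and 36.3 TPM at 7 dpi (4.90 ± 0.22, adjusted p = 0.0033). Kera was thus near 0 at 3 dpi and moderately expressed at 7 dpi, while Lum was abundant on both days. Aspn and Ecm2 moved by 2.13 and 2.13, Ogn by 1.59, and Dcn, decorin, by 1.08. Bgn, biglycan, was not called (0.32). The lower member was Tsku, a secreted antagonist of growth factors, at 119.6 and 166 TPM at 3 dpi and 83.5 and 76.7 TPM at 7 dpi (-0.72 ± 0.20, no call without either 7 dpi library), and its difference was -0.46 without the second 3 dpi library.

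Elastic fiber and matricellular genes were higher in 18 of 36 and lower in 4, with a median of 0.95 (left-out counts 10 and 6). Fbln7, a fibulin, was at 14.4 and 13.1 TPM at 3 dpi and 193 and 209.8 TPM at 7 dpi (3.87 ± 0.11, adjusted p = 0.0027). Mfap4, a protein of elastin microfibrils, was at 62.3 and 110.0 TPM at 3 dpi and 922 and 884 TPM at 7 dpi (3.52 ± 0.30). Mfap2, of the same microfibrils, was at 76.6 and 81.1 TPM at 3 dpi and 513 and 613 TPM at 7 dpi (2.91 ± 0.14). Eln, elastin, and the matricellular Postn, periostin, moved with them by 1.44 and 2.05. Among the lower members, Ccn5 was at 1147 and 475 TPM at 3 dpi and 196 and 189.6 TPM at 7 dpi (-1.84 ± 0.40, no call without either 7 dpi library), and Ltbp2, a latent TGF-beta binding protein, was at 526 and 344 TPM at 3 dpi and 158 and 111 TPM at 7 dpi (-1.58 ± 0.26, no call without the second 7 dpi library). Fn1, Tnc and Thbs1, which encode the provisional matrix proteins fibronectin, tenascin C and thrombospondin 1, were not called (1.11, -1.06 and -0.15).

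Genes that modify and crosslink collagen were lower in 8 of 29 and higher in 3, with a median of -0.26 that was -0.49 without the first and -0.14 without the second 3 dpi library (left-out counts 4 and 2). Loxl3, a lysyl oxidase, was at 907 and 879 TPM at 3 dpi and 209 and 174 TPM at 7 dpi (-2.13 ± 0.15, adjusted p = 0.0038). Loxl4, of the same family of crosslinking enzymes, was at 83.1 and 103 TPM at 3 dpi and 20.7 and 30.1 TPM at 7 dpi (-1.76 ± 0.22). Lox and Loxl1 were also lower (-1.41 and -0.81), and Loxl2 was not called (0.51). One of the lower members, Leprotl1, an endosomal protein, is not known to act on collagen. The higher members included Colgalt2, a collagen galactosyltransferase, at 3.23 and 5.57 TPM at 3 dpi and 23.7 and 25.8 TPM at 7 dpi (2.37 ± 0.27, no call without the second 7 dpi library), and Adamts2, which trims procollagen, at 209 and 235 TPM at 3 dpi and 362 and 383 TPM at 7 dpi (0.84 ± 0.14, no call without either 7 dpi library).

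Matrix proteases and their inhibitors were higher in 14 of 31 and lower in 3, with a median of 0.61 (left-out counts 8 and 4). Mmp13, a collagenase, was at 1.59 and 2.97 TPM at 3 dpi and 31.0 and 53.9 TPM at 7 dpi (3.78 ± 0.35, adjusted p = 0.0043). Mmp2, a gelatinase, and its membrane-bound activator Mmp14 moved by 1.48 and 1.30. The metalloprotease inhibitors went apart, Timp2 and Timp3 higher (1.78 and 1.85) and Timp1 lower, at 2304 and 4174 TPM at 3 dpi and 868 and 752 TPM at 7 dpi (-1.85 ± 0.36, no call without either 7 dpi library). Serpine2, an inhibitor of serine proteases, moved by 1.72.

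In TGF-beta and BMP signaling 6 of 28 were higher and 6 lower, with a median of 0.15 that was 0.24 without the first 3 dpi library (left-out counts 2 and 1). These counts were close to the 17.6% higher and 20.1% lower of all tested genes. The ligand Tgfb3 was at 68.0 and 72.9 TPM at 3 dpi and 274 and 263 TPM at 7 dpi (2.01 ± 0.12, adjusted p = 0.0038). Tgfb2 moved by 0.86 and Tgfb1 by -0.43, so the 3 ligands of this family did not move together. The BMP ligand Bmp5 was at 76.6 and 38.4 TPM at 3 dpi and 115 and 123 TPM at 7 dpi (1.21 ± 0.30, no call without either 7 dpi library), and its difference was 0.74 without the second 3 dpi library. Id1, a target of BMP signals, was at 262 and 189.7 TPM at 3 dpi and 70.1 and 47.8 TPM at 7 dpi (-1.83 ± 0.24, no call without the second 7 dpi library). Smad6, an inhibitor of BMP signals, was at 43.2 and 15.9 TPM at 3 dpi and 7.64 and 8.06 TPM at 7 dpi (-1.54 ± 0.44, no call without either 7 dpi library), and its difference was -0.90 without the first 3 dpi library. Smad7, the inhibitor of TGF-beta signals, moved by -1.14, and the receptors Tgfbr1, Tgfbr2 and Bmpr1a were not called (0.35, 0.26 and 0.24).

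In Wnt signaling 10 of 28 were higher and 3 lower, with a median of 0.28 (left-out counts 5 and 3). The secreted Wnt antagonist Sfrp4 was at 8.55 and 15.3 TPM at 3 dpi and 85.8 and 117 TPM at 7 dpi (3.11 ± 0.32). Its relative Sfrp2 was at 2513 and 1082 TPM at 3 dpi and 477 and 449 TPM at 7 dpi (-1.74 ± 0.39, no call without either 7 dpi library). These antagonists moved in opposite directions, and Dkk3 moved by 2.43. Rspo2, which amplifies Wnt signals, was at 0.11 and 0.338 TPM at 3 dpi and 6.66 and 4.89 TPM at 7 dpi (2.51 ± 0.22). The ligand Wnt2 was at 25.0 and 21.5 TPM at 3 dpi and 6.34 and 9.68 TPM at 7 dpi (-1.37 ± 0.22, no call without either 7 dpi library). Axin2, a general target of the pathway, was not called (0.85).

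Contractile genes of myofibroblasts were higher in 3 of 20 and lower in 2, with a median of 0.27 that was 0.04 without the first and 0.60 without the second 7 dpi library (left-out counts 2 and 2). Acta2, smooth muscle actin, was at 198 and 337 TPM at 3 dpi and 368 and 175 TPM at 7 dpi (0.07 ± 0.45), and its 7 dpi libraries lay on both sides of those at 3 dpi. Myl9, a myosin light chain, was at 30.8 and 63.3 TPM at 3 dpi and 214 and 140.2 TPM at 7 dpi (2.04 ± 0.41, no call without either 7 dpi library). Itga8, an integrin of contractile stromal cells, was at 0.381 and 0.395 TPM at 3 dpi and 3.80 and 4.24 TPM at 7 dpi (1.90 ± 0.16). Pericyte markers were also higher in the first 7 dpi library, with Rgs5 at 1.01 and 0.865 TPM at 3 dpi and 63.6 and 12.3 TPM at 7 dpi (3.99 ± 0.75), and their part in the contractile genes was not tested.

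Tendon-associated genes were higher in 10 of 14 and lower in none, with a median of 1.26 (left-out counts 5 and 4), and the list shares Kera, Fmod, Comp and Thbs4 with the lists above. Tnmd, which encodes tenomodulin, a membrane protein of mature tenocytes, was at 2.85 and 3.25 TPM at 3 dpi and 64.9 and 141 TPM at 7 dpi (4.66 ± 0.37, adjusted p = 0.0038). Scx, the transcription factor of tendon progenitors, was at 0.72 and 2.35 TPM at 3 dpi and 8.55 and 7.27 TPM at 7 dpi (1.95 ± 0.37, no call without either 7 dpi library). Another tendon factor, Mkx, moved by 1.38, while Egr1 was not called (0.63). Genes of cartilage and bone were higher in 7 of 22 and lower in 2, with a median of 0.32 (left-out counts 4 and 2). Acan, aggrecan, was at 0.107 and 1.25 TPM at 3 dpi and 9.60 and 6.22 TPM at 7 dpi (2.52 ± 0.41, no call without either 7 dpi library). Spp1, osteopontin, was at 799 and 1451 TPM at 3 dpi and 231 and 131 TPM at 7 dpi (-2.53 ± 0.42, no call without the second 7 dpi library). The factors Sox9, Runx2 and Sp7 of chondrocytes and osteoblasts were not called (-0.15, -0.33 and -0.59).

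Genes of resting fibroblasts were higher in 18 of 25 and lower in 2, with a median of 1.33 (left-out counts 8 and 3). Hmcn2, a hemicentin, was at 46.9 and 19.1 TPM at 3 dpi and 194 and 219 TPM at 7 dpi (2.83 ± 0.39, no call without the second 7 dpi library). Clec3b, tetranectin, was at 305 and 298 TPM at 3 dpi and 946 and 1399.6 TPM at 7 dpi (2.02 ± 0.22). Dpt, dermatopontin, was at 547 and 641 TPM at 3 dpi and 1970.1 and 2095 TPM at 7 dpi (1.87 ± 0.19, no call without the second 7 dpi library). These secreted proteins rose together with Pi16 and Dpp4, markers of adventitial fibroblasts (1.51 and 1.75). The lower members were Wnt2 and the chemokine Cxcl14, at 1789 and 1669 TPM at 3 dpi and 647 and 858 TPM at 7 dpi (-1.12 ± 0.21, no call without either 7 dpi library). Adipogenic genes were higher in 6 of 17 and lower in 3 (left-out counts 2 and 0). Their median of -0.05 was 0.57 without the first 3 dpi library and 0.02 without the second 7 dpi library, so it gives no direction. Pparg and Cebpa, the central factors of adipogenesis, were not called (-0.02 and -0.05). Apoe, a lipid carrier, was at 52.2 and 26.6 TPM at 3 dpi and 111 and 181 TPM at 7 dpi (1.99 ± 0.36, no call without the second 7 dpi library). Plin2, a coat protein of lipid droplets, was at 132 and 133 TPM at 3 dpi and 56.9 and 48.3 TPM at 7 dpi (-1.23 ± 0.13, no call without the second 7 dpi library).

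**Figure D3:**
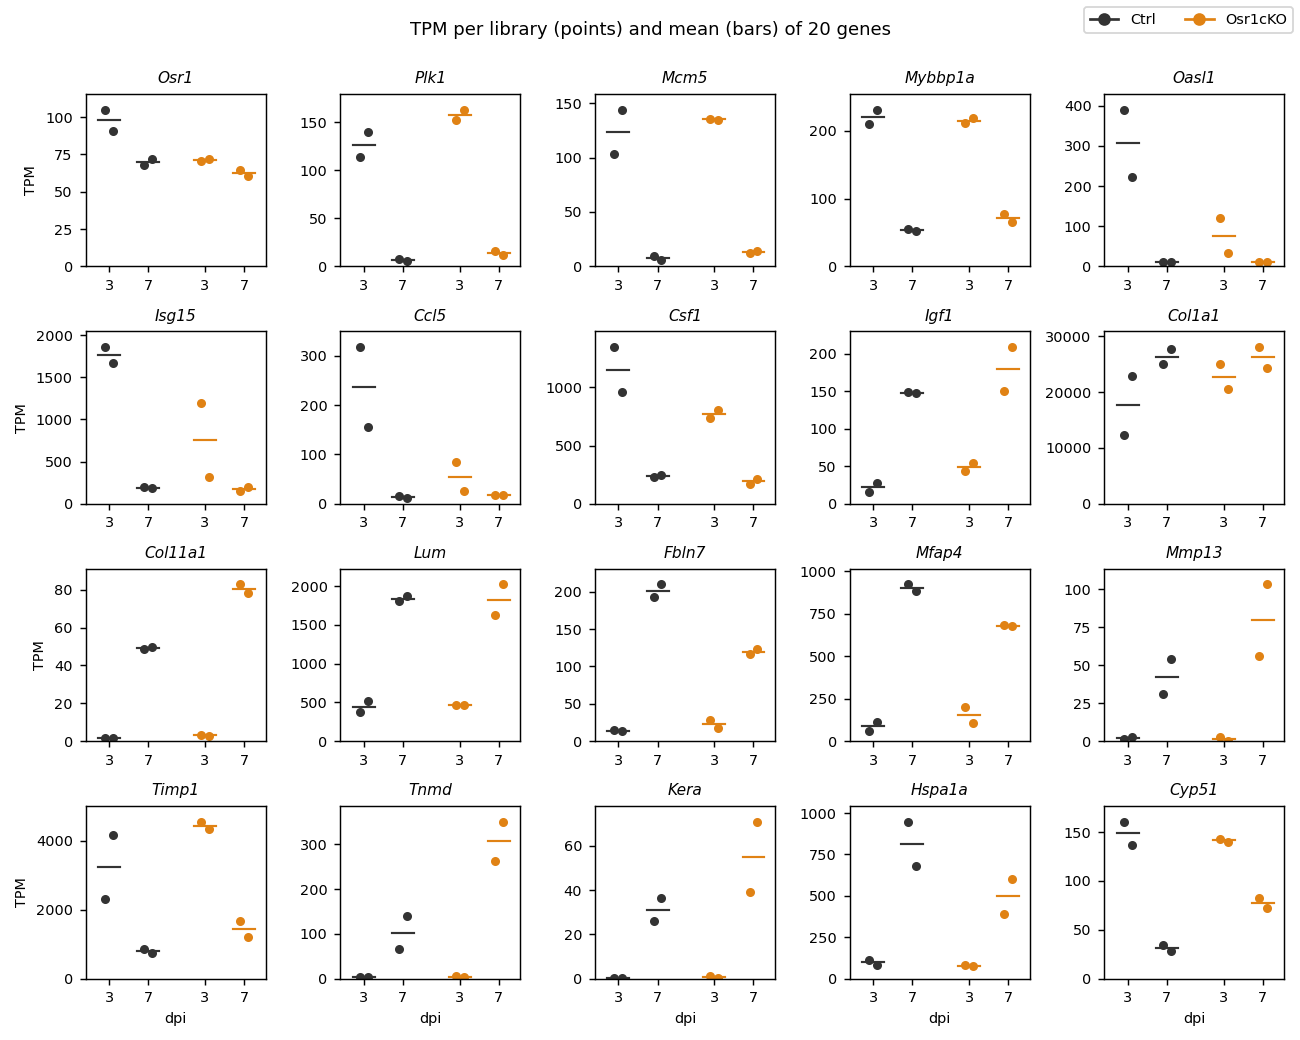
TPM of 20 genes (y axis, linear from 0) in each library at 3 and 7 dpi (x axis), in Ctrl (black) and Osr1cKO (orange); points are the 2 libraries of a group and bars their mean. The Ctrl days are apart for Plk1, Mcm5, Oasl1, Lum and Cyp51, while the Ctrl 3 dpi libraries of Col1a1, at 12404 and 22891 TPM, differ by more than the means of the days.

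In cells sorted against CD31, CD45 and TER-119, markers of other cell types were higher at 7 dpi in a part of their listed members. In bulk RNA, more cells of a type and more RNA per cell cannot be told apart. Ptprc, which encodes CD45, did not exceed 0.152 TPM in Ctrl, Sox10 of Schwann cells 0.0297 TPM and S100a8 of neutrophils 2.74 TPM. Of 19 tested macrophage and monocyte markers 6 were higher and none lower (left-out counts 3 and 0), and the summed level of the list went from 41.3 and 42.5 TPM at 3 dpi to 86.8 and 99.98 TPM at 7 dpi. Lyz2, a lysozyme, was at 2.93 and 6.93 TPM at 3 dpi and 23.9 and 21.1 TPM at 7 dpi (2.15 ± 0.38, no call without either 7 dpi library). Endothelial markers were higher in 4 of 12 and lower in none (left-out counts 2 and 1), with sums of 52.4 and 32.2 TPM at 3 dpi and 65.5 and 80.7 TPM at 7 dpi. Pecam1, which encodes CD31, was at 1.19 and 1.10 TPM at 3 dpi and 3.56 and 4.73 TPM at 7 dpi (1.32 ± 0.19, no call without the second 7 dpi library). Myofiber genes were higher in 10 of 18 and lower in none (left-out counts 6 and 7), with sums of 29.6 and 43.8 TPM and then 144 and 114 TPM, and Acta1, skeletal actin, was at 1.67 and 2.41 TPM at 3 dpi and 28.7 and 20.6 TPM at 7 dpi (3.14 ± 0.26).

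Pericyte and smooth muscle markers were higher in 4 of 8 and lower in none (left-out counts 1 and 3), with sums of 249 and 385 TPM at 3 dpi and 514 and 243 TPM at 7 dpi. Their median of 1.13 was 0.70 without the first 7 dpi library. Muscle stem cell markers were higher in 2 of 9 and lower in 2, Sdc4 and Cd82, which fibroblasts also express (left-out counts 1 and 2). Their sums were 624 and 453 TPM at 3 dpi and 352 and 271 TPM at 7 dpi, and their median of 0.67 was -0.09 without the first 7 dpi library. That library held most of the myogenic transcripts, with Myog, a factor of differentiating muscle cells, at 0 and 0.0526 TPM at 3 dpi and 14.1 and 1.94 TPM at 7 dpi (2.74 ± 0.77, no call without either 3 dpi library), and Pax7, of muscle stem cells, at 0 and 0.0134 TPM at 3 dpi and 2.30 and 0.17 TPM at 7 dpi. Both tested erythroid markers were higher (left-out counts 2 and 1), with Hbb-bs, adult hemoglobin, at 0.523 and 1.13 TPM at 3 dpi and 13.5 and 33.0 TPM at 7 dpi (3.69 ± 0.45). Neutrophil markers were higher in 1 of 3 (left-out counts 0 and 0), with sums of 2.44 and 3.67 TPM at 3 dpi and 4.10 and 17.1 TPM at 7 dpi. Lymphoid markers were higher in 1 of 3 (left-out counts 1 and 0), with sums of 14.3 and 7.13 TPM and then 17.7 and 15.4 TPM. Schwann cell markers were higher in 3 of 8 (left-out counts 0 and 0), with sums of 242 and 231 TPM and then 229.9 and 276 TPM, which overlap between the days. None of these were lower. The part of other cells in the lists that rose was not tested.

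**Figure D4:**
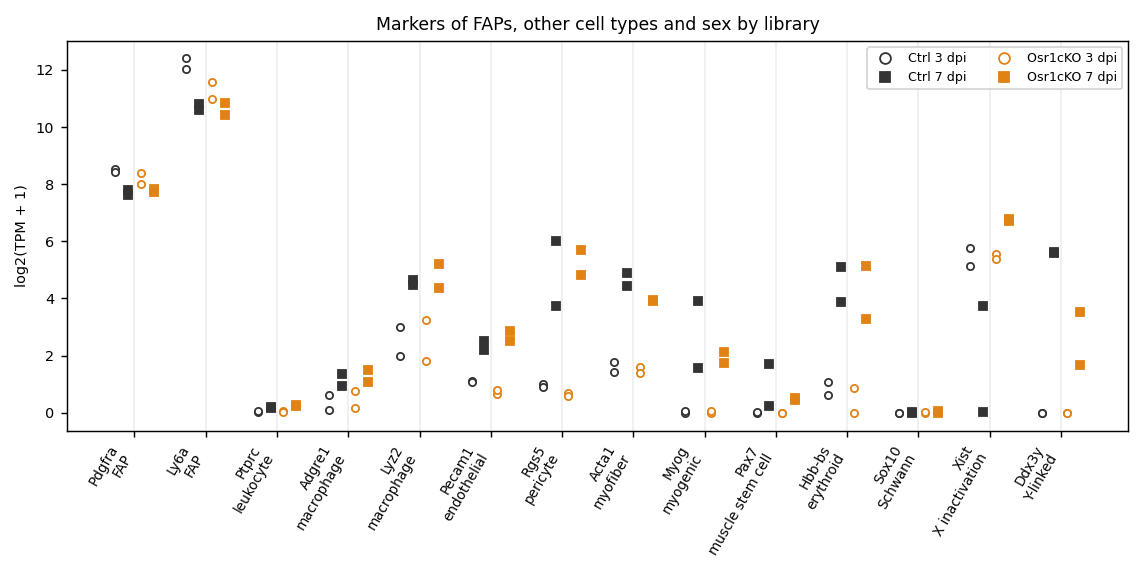
log2(TPM + 1) of 14 marker genes (y axis) by library, Ctrl in black and Osr1cKO in orange, circles at 3 dpi and squares at 7 dpi. Pdgfra and Ly6a of FAPs lie above the markers of leukocytes, endothelium, pericytes, myofibers and Schwann cells in every library, and Ddx3y is at 0 at 3 dpi and near 48 TPM at 7 dpi in Ctrl.

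The Osr1cKO day difference was taken between 4 libraries that are not part of the Ctrl day difference. Its fit ran over all 8 libraries, however, so scaling, spread and calls in Osr1cKO also drew on the Ctrl libraries. Only genes kept in Ctrl entered it. Of the 6240 genes called in Ctrl, 98.5% had the same sign in Osr1cKO and 4897 were called there in the same direction. Of all 16525 genes tested, 3135 were called higher and 3753 lower in Osr1cKO. The share with the same sign over all tested genes is not given, so the 98.5% cannot be set against it. The 1 gene called in opposite directions was Hcar2, a receptor for nicotinic acid, which was chosen after its values were seen. It was at 2.0 and 1.18 TPM at 3 dpi and 0.625 and 0.235 TPM at 7 dpi (-0.81 ± 0.23, no call without the first 3 dpi or the first 7 dpi or the second 7 dpi library) in Ctrl. In Osr1cKO it was at 0.737 and 0.396 TPM at 3 dpi and 2.96 and 1.51 TPM at 7 dpi. Whether the day difference itself differed between genotypes was tested with an interaction term over all 8 libraries, in 17371 genes. With limma 0 genes (0%) were called, at a smallest adjusted p of 0.141, and 1177 (6.78%) had an unadjusted p under 0.05. Limma-voom on recovered fragments also gave 0 calls, with 1092 genes at an unadjusted p under 0.05. The count turned on single 3 dpi libraries: 73 genes were called without the first and 18 without the second Ctrl 3 dpi library, and 11 without the first Osr1cKO 3 dpi library. With 2 libraries per group this does not show that the genotypes changed alike. Among the 33 lists of the plot of list medians, the medians lay farthest apart for interferon-stimulated genes (-2.02 in Ctrl and -0.78 in Osr1cKO) and for cholesterol genes (-1.34 and -0.73). An unadjusted interaction p under 0.05 was found for 9 of 41 and for 19 of 24 of their members, none of which passed the adjustment. The medians lay closer for mitosis (-2.77 and -2.46), small leucine-rich proteoglycans (1.08 and 1.30) and tendon-associated genes (1.26 and 1.37). Xist and Ddx3y also differed between the days in Osr1cKO, and the part of sex in these medians was not tested.

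**Figure D5:**
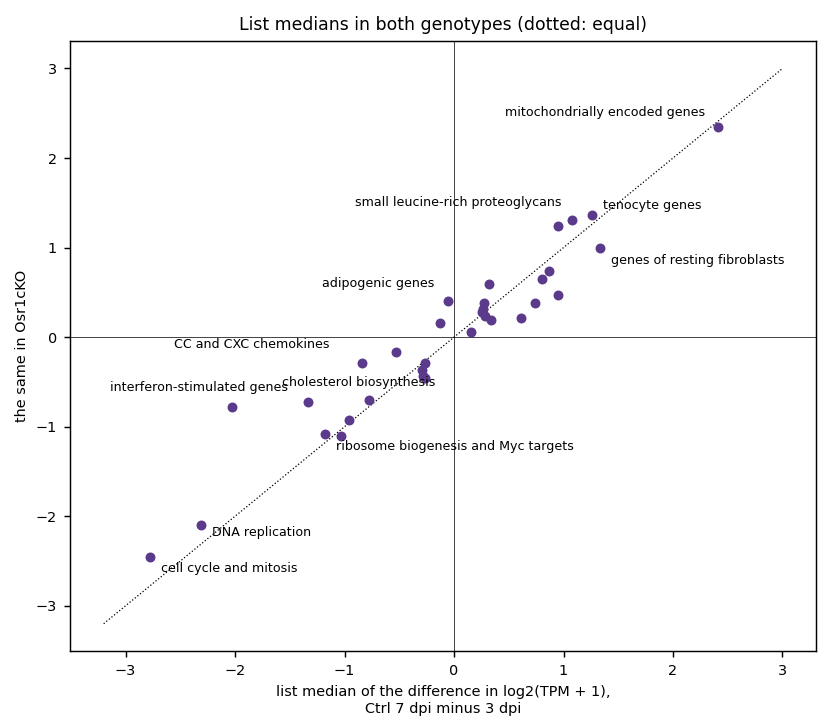
Each point is 1 of 33 gene lists, at its median difference in log2(TPM + 1) between 7 and 3 dpi in Ctrl (x axis) and in Osr1cKO (y axis); the dotted line marks equal medians. Interferon-stimulated genes (-2.02 against -0.78) and cholesterol genes (-1.34 against -0.73) lie farthest from the line.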

How the data were processed

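RNA was measured in 8 libraries of sorted FAPs, 2 per genotype and day, from poly(A) RNA and a stranded kit. Per the labels and the study's methods, the authors aligned reads to mm10 with STAR and deposited, for each library, TPM values made from DESeq2-normalised fragment counts; counter, annotation, strand setting and versions are not given in the sources used here. Each table had 55385 entries; 109 further entries of 106 repeated symbols were left out, and 53275 of 55276 symbols matched 1 gene of GENCODE M21, whose exon lengths turned TPM back into fragments (98.7% to 98.9% of values under 50 fragments within 0.02 of whole).

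Genes with at least 10 fragments in 2 Ctrl libraries and 15 over all 4 were kept, or a mean of 1 TPM without a length. After scaling by a mean of log ratios trimmed by 30%, log2(TPM + 1) was fitted with limma 3.58.1 (R 4.3.3, lmFit, eBayes with trend). Tests were two-sided with Benjamini-Hochberg adjustment. The Osr1cKO day comparison, in the genes kept for Ctrl, and the interaction were each fitted over all 8 libraries. Tables were made with Python 3.11.15 and pandas 2.3.3. The fit was tested on simulated data. No p-value is exact or counts mice: n is 2 libraries per group. Fragments from PCR without molecular identifiers are not independent molecules.

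The comparison, 43 gene lists and promoter motifs were chosen with earlier results of these data known. Genes were named by rule: Osr1, the 10 largest called changes in each direction with at least 20 TPM, and the 2 largest called members of each list in each direction; further list members and markers were chosen after their values were seen. Some list members enter the counts and are not reported here by name. Of the list symbols 23 were matched through RefSeq synonyms and 2 not at all. Alternatives covered scaling, pseudocount, filter, test, block and each library left out.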

Additional observations from a re-analysis of the deposited data

How the results depend on the processing

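No sign reversed among the called genes given by rule, under any of the alternatives run. For the fits without 1 library this nearly follows from the days not overlapping. Without a filter on low values 1155 genes were higher and 2044 lower, and 45 of 132 such genes lost their call; that fit tests more genes. A threshold of 2-fold left 1433 higher and 1536 lower. Leaving out 1 library gave 345 to 3793 higher and 365 to 4523 lower genes, with 51 and 74 of the 132 lost without the first and the second 7 dpi library. The deposited TPM without further scaling gave 2494 higher and 3965 lower, with the median of all genes at -0.058. Other settings stayed within 1.5 times: a median of ratios 2969 and 3272, a pseudocount of 0.1 2755 and 3315, a mean of at least 1 TPM 2682 and 2943, limma-voom on recovered fragments 2906 and 3331, and an adjustment for exon length 2832 and 3336. The replicate block gave 2614 higher and 2828 lower; replicate numbers mark no shared animal, and the differences between numbers correlated at -0.163 across 16525 genes between days, so the numbers do not pair the libraries. A crossed pairing, added after seeing the data, gave 2882 and 3294. The interaction count of 0 was 3 with a pseudocount of 0.1, 1 with a mean of at least 1 TPM, and 0 to 73 without 1 library, with 0 under the replicate block. The cause of these shifts was not tested. The median of the adipogenic list also changed sign with the exon length adjustment, to 0.03. Histone genes had no exon length and gave no median under voom or that adjustment. With 2 libraries per group, changes under 2-fold are those the design detects least.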

Other observations

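Imprinted genes, expressed from 1 parental allele and many of them active in growing embryonic tissue, were higher at 7 dpi in 16 of 27 tested and lower in none, where 17.6% of all genes were higher. The 32 listed were chosen after values had been seen, so no test is given over them and the count supports nothing. Differences are 7 dpi minus 3 dpi in log2(TPM + 1) ± SE. Mest, a hydrolase-like protein of embryonic mesoderm, stood at 10.5 and 18.4 TPM at 3 dpi and 647 and 619.6 TPM at 7 dpi (5.50 ± 0.28). H19, a long noncoding RNA, was at 160.5 and 448 TPM at 3 dpi and 3126 and 2953 TPM at 7 dpi (3.59 ± 0.52, no call without the second 7 dpi library). Both libraries of 7 dpi lay over 6-fold above both of 3 dpi for these genes. Dlk1, a Notch ligand-like protein that restrains adipogenesis, was at 11.1 and 9.77 TPM at 3 dpi and 64.8 and 91.8 TPM at 7 dpi (2.87 ± 0.19). Meg3, a noncoding RNA of the same locus, was at 44.6 and 28.8 TPM at 3 dpi and 263 and 341 TPM at 7 dpi (3.12 ± 0.23). Peg3, a zinc finger protein, was at 14.4 and 8.96 TPM at 3 dpi and 57.8 and 58.4 TPM at 7 dpi (2.35 ± 0.21), and its neighbor Zim1 at 2.54 and 0.972 TPM at 3 dpi and 27.2 and 32.9 TPM at 7 dpi (3.62 ± 0.31). Cdkn1c, an inhibitor of the cell cycle, was at 69.4 and 15.6 TPM at 3 dpi and 253 and 279.7 TPM at 7 dpi (3.06 ± 0.65, no call without either 7 dpi library), and its 3 dpi libraries differed from each other by over 4-fold. The level was lower at 3 dpi in both genotypes: in Osr1cKO, Mest was at 60.4 and 29.6 TPM at 3 dpi and 641 and 635 TPM at 7 dpi, and H19 at 579 and 454 TPM at 3 dpi and 2074 and 1639 TPM at 7 dpi.

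Other imprinted genes did not move in this way. Ndn was at 99.7 and 108 TPM at 3 dpi and 79.9 and 86.9 TPM at 7 dpi, and Impact at 65.4 and 49.5 TPM at 3 dpi and 55.5 and 50.7 TPM at 7 dpi. Igf2r, the decoy receptor of Igf2, was at 103 and 164 TPM at 3 dpi and 186 and 156 TPM at 7 dpi. Gnas, which encodes a G protein subunit, was at 388 and 12.9 TPM at 3 dpi and 707 and 759 TPM at 7 dpi, so that the second 3 dpi library stood apart from the other Ctrl libraries. That library also stood apart for 2 overlapping genes on opposite strands of chromosome 17. Gm42418 was at 13085 and 0 TPM at 3 dpi, and CT010467.1, a ribosomal RNA entry, at 2.08 and 8316 TPM. The cause was not tested. In Osr1cKO Gnas was at 439.8 and 405 TPM at 3 dpi and 643 and 760.4 TPM at 7 dpi.

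Processed pseudogenes were higher in 322 and lower in 126 of 863 tested, and small nucleolar RNA genes higher in 13 and lower in none of 45. Among them Snord37 was at 5.02 and 0 TPM at 3 dpi and 75.4 and 55.2 TPM at 7 dpi (4.82 ± 0.82, no call without either 7 dpi library). These entries are short or share sequence with other genes, and their levels are uncertain.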
